A study of Mus musculus with 2 samples.

Results

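The genes described here encode the core parts of the desmosome. They are the desmosomal cadherins Dsg2, Dsg3, Dsc2 and Dsc3, the armadillo-repeat proteins Jup, Pkp1, Pkp2 and Pkp3, and the plakins Dsp and Ppl. They were chosen by name, as all gene spots of the scanner output whose gene name was one of these 10. This gave 64 spots on each array, in 16 probes of 10 genes, out of 39429 probes and 30011 genes. A probe was tested where most of its spots stood well above background in the same genotype on array 1 and on array 2, which held for 8 of the genes with 11 probes. The tested set is therefore not the whole list, since Dsg3 and Dsc3 did not pass that filter.

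The RNA came from cultured ureters of NMRI mouse embryos. Mutants carried Tbx18(cre/+) with Fgfr1(fl/fl) and Fgfr2(fl/fl), so that Cre expressed from the Tbx18 locus removes both fibroblast growth factor receptor genes from the mesenchyme of the ureter and its descendants. Controls are labelled Fgfr1(fl/?);Fgfr2(fl/?), with the other allele undefined and no Cre listed. Loss of the receptors and presence of Cre at Tbx18 therefore cannot be told apart. All ureters were taken at E15.5 (E counts days of embryonic development) and kept on culture membranes for 6 days. Each of 2 arrays held 1 mutant and 1 control RNA. The mutant RNA was in Cy5 on array 1, labelled male, and in Cy3 on array 2, labelled female. Effects of sex label, of dye and of replicate cannot be told apart. The labels name neither the embryos pooled for a sample nor their litters, so the p-values rest on a spread between samples that may be technical alone.

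Desmosomes are spot-like junctions that tie the keratin filaments of neighbouring epithelial cells together. Desmogleins and desmocollins span the gap between the cells. Plakoglobin (Jup) and the plakophilins bind the tails of these cadherins, and desmoplakin (Dsp) links that plaque to keratin filaments. In the ureter desmosomes belong mainly to the urothelium, the stratified lining epithelium, which does not derive from the Tbx18 lineage. Which cells the transcripts came from was not measured. The comparison asks how transcripts of the cultured ureter differ when the receptors are lost from the surrounding mesenchyme. Whole ureters were measured, so more or fewer epithelial cells and more or less RNA per cell cannot be told apart.

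Each probe is a 60-base oligonucleotide printed in 4 spots. Ratios are log2 of mutant over control, and levels are log2 normalised intensity in 1 RNA sample. Levels are not set against one another between genes, because probes differ in brightness. The single Pkp3 probe holds a repeat, and its values are set beside those of other probes with that repeat further on. A 30-base window of it (probe bases 19 to 48, 5′ to 3′) is shown beside windows of a probe of Impg1 (bases 31 to 60) and a probe of Lrrc19 (bases 1 to 30), with the run of alternating C and T in capitals.
Pkp3: aggacCTCTCTCTCTCTCTCTCTCTcctct
Impg1: tatagtctcCTCTCTCTCTCTCTCTCTCTc
Lrrc19: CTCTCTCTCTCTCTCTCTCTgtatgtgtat
Each of these 3 probes holds a CT run of 20 bases. The longest run of any repeated dinucleotide in the 10 other tested probes of the desmosome genes was 6 bases. A further pair of probes is shown whole, because they are the second probe of Dsp, which gave a larger ratio than the first, and the only probe of Jup.
Dsp, second probe: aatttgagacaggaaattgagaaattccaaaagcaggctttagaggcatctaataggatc
Jup: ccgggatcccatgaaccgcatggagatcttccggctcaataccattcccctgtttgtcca

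No tested desmosome gene passed the test. At an adjusted p below 0.05 (limma over all genes, Benjamini-Hochberg), 0 of 8 were called, against 836 of all 22070 genes tested, or 3.79% (1.76% higher and 2.03% lower in the mutant RNA). At an unadjusted p below 0.05 there were 2 of the 8, Ppl and Pkp3, where 22.5% of all genes reached that level. Of the 8 genes, 5 had ratios above 0 on both arrays (30.5% of all genes), 1 had ratios below 0 on both (36%), and Dsc2 and Pkp1 went opposite ways. The median log2 ratio of the 8 was 0.18, with 0.22 on array 1 and 0.16 on array 2, where the median of all tested genes was -0.02. In 3 of the 8 genes both mutant levels lay above both control levels, where 21.5% of all genes had that pattern. In 0 of the 8 did both mutant levels lie below both control levels, where 23.5% of all genes did. Below, genes that rose or fell are genes that passed at an adjusted p below 0.05 in that direction.

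**Figure D1:**
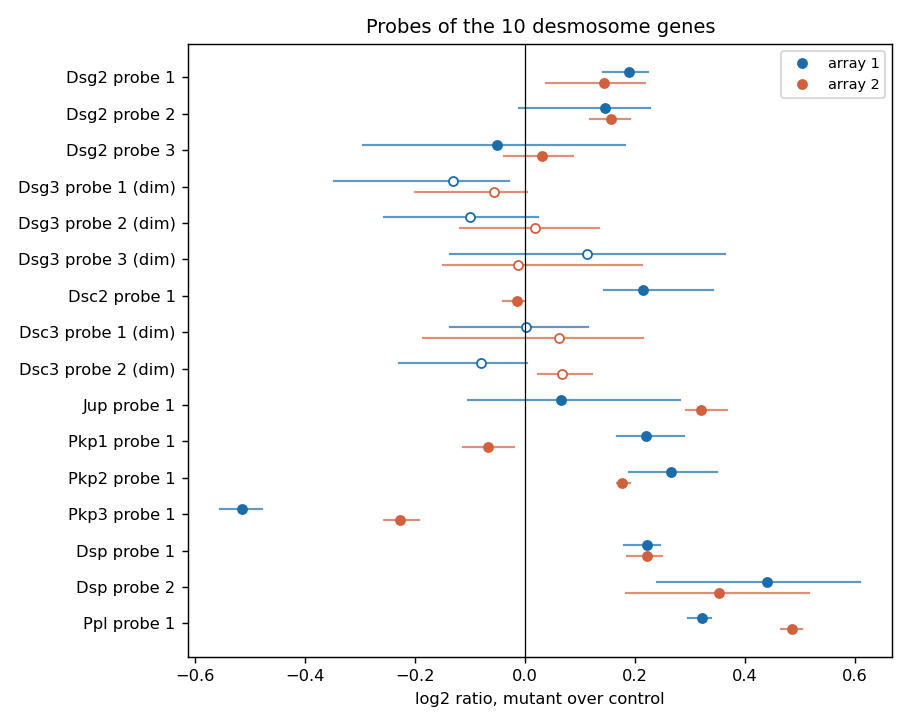
Log2 ratio of mutant over control for each of the 16 probes of the 10 desmosome genes, with a point for the mean of up to 4 spots on each array and a bar from the lowest to the highest spot. Open points are the 5 probes of Dsg3 and Dsc3 that were not well above background; Ppl and the second Dsp probe lie farthest right, and Pkp3 lies alone on the left.

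Among the desmosomal cadherins, Dsg2, the desmoglein of simple and stratified epithelia, had levels of 9.62 and 9.50 in control RNA and 9.81 and 9.64 in mutant RNA. Both mutant levels lay above both control levels. Its ratio was 0.17 ± 0.03 (SD, n = 2), with a 95% interval from -0.07 to 0.41 (limma adjusted p = 0.382). The probe lies on chromosome 18 at 20761177 to 20761236 (mm9). The second Dsg2 probe, at 20737628 to 20737687, gave a mean of 0.15. The third, at 20743861 to 20743920, had signal well above background in only 1 of 4 mutant spots on array 1, and its ratios of -0.05 and 0.03 lay on either side of 0.

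Dsc2, the widely expressed desmocollin, did not keep a direction. Its levels were 9.99 and 10.20 in control RNA and 10.20 and 10.19 in mutant RNA, so the groups overlapped. The ratio was 0.21 on array 1 and -0.02 on array 2, or 0.10 ± 0.16 (SD, n = 2; limma adjusted p = 0.638), with a 95% interval from -0.16 to 0.36. The probe lies on chromosome 18 at 20189299 to 20189358.

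Dsg3 and Dsc3, the cadherins of the basal layers of stratified epithelia, had only a bound on their level. All 3 Dsg3 probes and both Dsc3 probes were not well above background on both arrays in either genotype. Among the 5 probes, the one with any spot above background was a Dsg3 probe at 20703771 to 20703830, with all 4 in the control RNA of array 1 and 0 in the other RNA samples. No ratio of these genes is interpreted here, since at least 1 side is a bound on each array. The cadherin genes form a cluster on chromosome 18, with probes spread over 639 kb in the order Dsc3, Dsc2, Dsc1, Dsg1c, Dsg1a, Dsg1b, Dsg4, Dsg3 and Dsg2. Of these 9 genes only Dsc2, Dsg1c and Dsg2 were tested. The other 6 were not well above background on both arrays in either genotype, although 1 probe each of Dsg3, Dsc1 and Dsg4 had all 4 control spots above it on array 1.

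Among the armadillo-repeat proteins, Jup, the plakoglobin shared by desmosomes and adherens junctions, had levels of 7.19 and 7.18 in control RNA and 7.25 and 7.50 in mutant RNA. Both mutant levels were higher, by little on array 1. The ratios were 0.07 and 0.32, or 0.19 ± 0.18 (SD, n = 2; limma adjusted p = 0.351), with a 95% interval from -0.07 to 0.45. On array 1 the 4 spots ran from -0.10 to 0.28, so the spread between spots on that array was wider than its mean. On array 2 they ran from 0.29 to 0.37. The authors' deposited table, which holds signed folds, listed Jup at 1.05 on array 1 and 1.62 on array 2. The probe lies on chromosome 11 at 100238038 to 100238097.

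Pkp1, the plakophilin best known from stratified epithelia, had levels of 8.16 and 8.82 in control RNA and 8.38 and 8.76 in mutant RNA. The arrays differed more than the genotypes. Its ratios were 0.22 and -0.07, or 0.08 ± 0.20 (SD, n = 2; limma adjusted p = 0.738), with a 95% interval from -0.19 to 0.34. Its probe maps to chromosome 1, 137768027 to 137768086.

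Pkp2, a plakophilin of simple epithelia and of heart muscle, had levels of 10.86 and 11.15 in control RNA and 11.13 and 11.33 in mutant RNA. The mutant level was the higher one on each array, but the mutant level of array 1 lay below the control level of array 2. Its ratios were 0.27 and 0.18, or 0.22 ± 0.06 (SD, n = 2; limma adjusted p = 0.258), with a 95% interval from -0.02 to 0.46. The probe lies on chromosome 16 at 16272648 to 16272707. Because heart muscle also expresses Pkp2, the cardiac and striated muscle markers were read beside it. Of 10 tested, 0 rose and 2 fell, with Myh6, a heart myosin, at -2.17 ± 0.34 (SD, n = 2; adjusted p = 0.000827) and Ckm, muscle creatine kinase, at -1.14 ± 0.22 (adjusted p = 0.00986). Median centring ended both calls, and separate channels that of Ckm (0.154). The summed levels of these 10 markers were 51990 and 50874 in control RNA and 37123 and 36915 in mutant RNA. In this and later sums the brightest probes weigh most, so they are not amounts of a cell type. The part of these markers in the Pkp2 value was not tested.

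Pkp3, the plakophilin found across most epithelia, was the one desmosome gene with a ratio below 0 on both arrays. Its levels were 13.78 and 12.68 in control RNA and 13.26 and 12.45 in mutant RNA. On each array the mutant level was the lower one, but the groups overlapped, since both levels of array 1 lay above both of array 2. The ratios were -0.51 and -0.23, or -0.37 ± 0.20 (SD, n = 2; limma adjusted p = 0.114), with a 95% interval from -0.64 to -0.11. The spots of each array stood close together, from -0.55 to -0.48 on array 1 and from -0.26 to -0.19 on array 2. Its position is chromosome 7, 148276140 to 148276199.

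**Figure D2:**
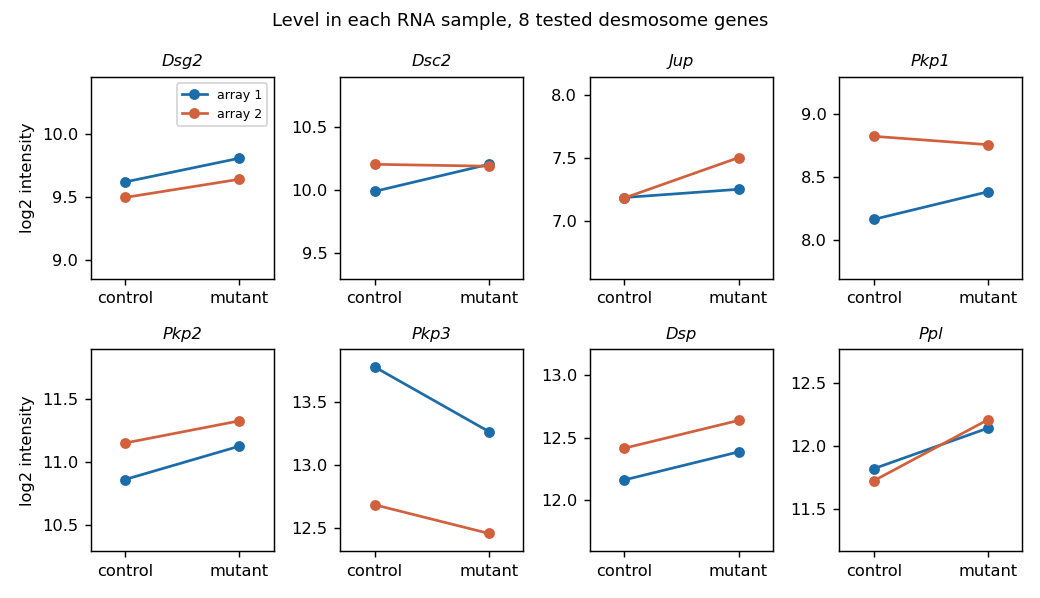
Level (log2 normalised intensity) of the 8 tested desmosome genes in control and mutant RNA, with a line joining the 2 RNA samples of each array; every panel spans the same range on its log2 axis. Lines rise on both arrays for Dsg2, Jup, Pkp2, Dsp and Ppl, fall on both for Pkp3, and cross direction for Dsc2 and Pkp1.

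The Pkp3 value stands beside a property of its probe, which was looked at after the values were seen. Of 39429 probes on the array, 6 (0.0152%) hold a CT run of 20 bases or more, and Pkp3's is one of them. The others belong to Rgs20, Lrrc19, Impg1 and 2900040C04Rik and to a probe without a gene name. All 6 had negative ratios on each array, and their means ran from -0.41 to -0.32. On array 1 they ran from -0.54 to -0.39 and on array 2 from -0.33 to -0.23. The Pkp3 ratio of -0.37 lies inside that range, among probes that share the repeat and belong to different genes. Lrrc19, at -0.46 and -0.33, and Impg1, at -0.39 and -0.25, are the genes whose windows are printed above.

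The same 6 probes also shared a gap between the arrays. Their control level on array 1 exceeded that on array 2 by 0.96 to 1.34 log2, and their mutant level by 0.81 to 1.10 log2. For Pkp3 the gaps were 1.10 (control) and 0.81 (mutant). In the 7 other tested desmosome genes they ran from -0.66 to 0.12 (control) and from -0.37 to 0.17 (mutant). Of all 28915 tested probes, 0.315% had gaps at least as large as Pkp3's in both genotypes. Among the 37 tested probes with a CT run of 10 bases or more, the median ratio was -0.14. Of these 37 probes, 25 lay below 0 on both arrays and 7 above 0 on both. Among all tested genes, by 1 probe each, 36% lay below 0 on both arrays and 30.5% above 0 on both. The part of the repeat in the Pkp3 ratio was not tested. Without Pkp3, an alternative chosen after seeing the data, the 7 remaining genes had a median of 0.19 and means from 0.08 to 0.40.

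**Figure D3:**
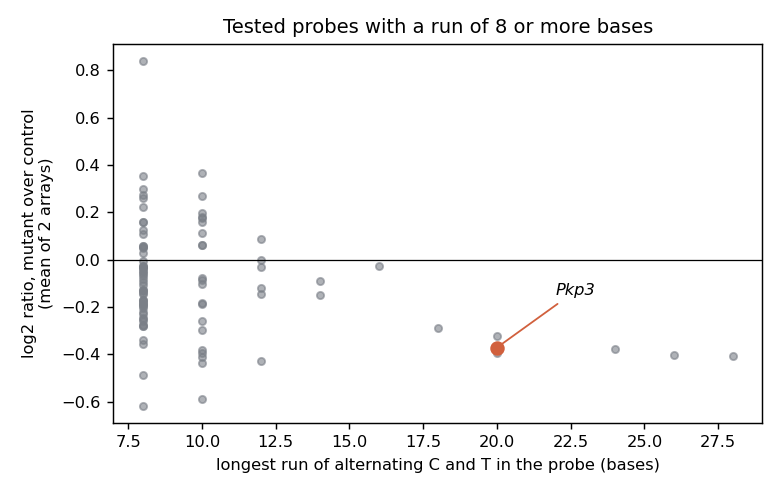
Mean log2 ratio of mutant over control on 2 arrays (vertical axis) against the longest run of alternating C and T in the probe (horizontal axis, bases), for tested probes with a run of 8 bases or more; each point is a probe and Pkp3 is marked. The 6 probes with runs of 20 bases or more, Pkp3 among them, lie between -0.41 and -0.32. Probes with runs of 14 to 18 bases lie between -0.29 and -0.03, and probes with runs of 8 to 12 bases lie on both sides of 0.

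Among the plakins, Dsp, which anchors keratin filaments to the plaque, had levels of 12.16 and 12.42 in control RNA and 12.39 and 12.64 in mutant RNA. The mutant level was the higher one on each array, and the groups overlapped because array 2 was brighter in both genotypes. Both ratios were 0.22, with an SD of 0.00062 between the arrays (n = 2; limma adjusted p = 0.252) and a 95% interval from -0.02 to 0.46. An SD this small over 2 arrays does not give the precision of the value, since the fitted interval draws on the spread of all genes. This probe maps to chromosome 13, 38290121 to 38290180.

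The second Dsp probe, printed above, is listed at 38285480 to 38286579, a stretch of 1100 bases for a 60-base probe. Its ratios were 0.44 and 0.35, a mean of 0.40 (limma adjusted p = 0.0604 over all tested probes). This probe was dim, with 2 of 4 control spots well above background on array 2, and its spots ran from 0.24 to 0.61 on array 1. In the authors' deposited table it stood at signed folds of 2.12 and 2.15, and the brighter Dsp probe at 1.16 and 1.14. With a background offset of 10 in place of 50 and nothing else changed, the dim probe gave 0.65 and 0.54, a mean of 0.60, and the brighter one a mean of 0.22. Both Dsp probes thus had ratios above 0 on both arrays, and that of the dim probe moved with the offset.

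Ppl, periplakin, a plakin of the cornified envelope and of desmosomal plaques, had the largest ratio of the 8 genes. Its levels were 11.8 and 11.7 in control RNA and 12.1 and 12.2 in mutant RNA, with both mutant levels above both control levels. The ratios were 0.32 and 0.49, or 0.40 ± 0.12 (SD, n = 2), a 1.32-fold difference with a 95% interval from 1.12 to 1.57. The unadjusted p was 0.00518 and the adjusted p 0.0784 (limma), so Ppl did not pass the threshold. At an adjusted p below 0.10 Ppl alone was called, 1 of 8 desmosome genes, against 8.64% of all genes. With the variance modelled as a trend with intensity the adjusted p was 0.0481, which is past it, and over all alternatives it ran from 0.0481 to 0.355. The probe is listed on chromosome 16 at 5086384 to 5086428, a stretch of 45 bases for a 60-base probe.

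**Figure D4:**
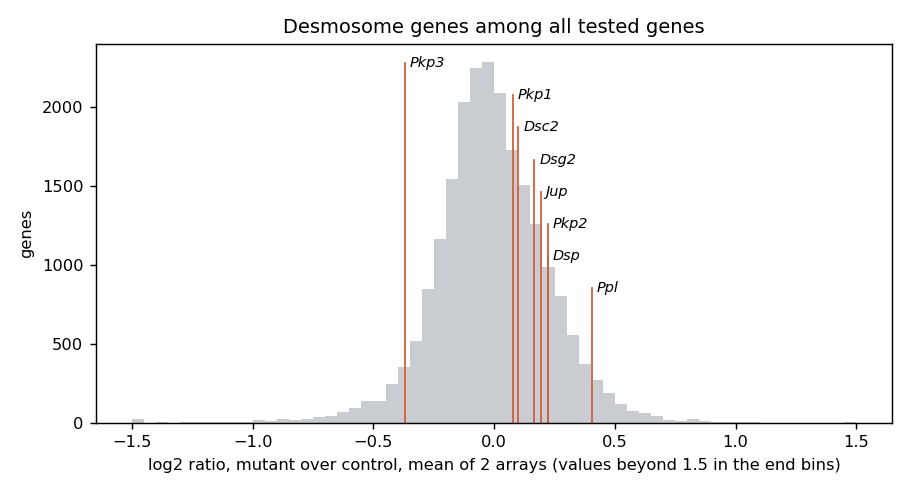
Number of the 22070 tested genes (vertical axis) by mean log2 ratio of mutant over control on 2 arrays (horizontal axis), with a line for each of the 8 tested desmosome genes; values beyond 1.5 are in the end bins. Ppl, at 0.40, lies above 96.3% of tested genes and Pkp3, at -0.37, above 4.94%; the other 6 lie between 0.08 and 0.22.

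Desmosome genes outside the 10 were taken from a list of 10, of which 6 were tested. The envoplakin gene Evpl, whose product pairs with periplakin, rose. Its levels were 12.8 and 12.9 in control RNA and 13.4 and 13.7 in mutant RNA, and the ratios were 0.60 and 0.82, or 0.71 ± 0.16 (SD, n = 2; limma adjusted p = 0.0216). That is a 1.64-fold difference (95% interval 1.37 to 1.95). The Evpl probe maps to chromosome 11, 116081921 to 116081980. The call was lost with the scanner software's processed signals (adjusted p = 0.0872), with median centring (0.123), with the authors' value table (0.0593) and with separate channels (0.255).

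The other 5 genes of that list did not pass. The plakophilin-like Pkp4 had a ratio of 0.31 ± 0.03 (SD, n = 2; limma adjusted p = 0.137). The desmoglein Dsg1c had 0.28 ± 0.02 (adjusted p = 0.171). Pnn, first described at desmosomes and known as a nuclear splicing protein, had 0.27 ± 0.20 (adjusted p = 0.212). In these genes both mutant levels lay above both control levels. Perp, a membrane protein of desmosomes, had 0.14 ± 0.20, from 0.0018 on array 1 to 0.28 on array 2 (adjusted p = 0.499). Cdsn, the corneodesmosome protein, had -0.07 ± 0.01 (adjusted p = 0.725). Dsc1, Dsg1a, Dsg1b and Dsg4, known from skin and hair, were not well above background on both arrays in either genotype. The median of the 6 tested genes was 0.27.

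Genes of other junctions were read in the same way. In the adherens junction list 2 of 12 rose and 0 fell, with a median of 0.31. The epithelial cadherin Cdh1 had 0.80 ± 0.14 (SD, n = 2; limma adjusted p = 0.0156) and Nectin4, an adhesion receptor of these junctions, 0.62 ± 0.01 (adjusted p = 0.0242). In the hemidesmosome list, whose products tie the basal cells to the basement membrane, 0 of 9 passed and the median was 0.20 (array 1 had -0.12 and array 2 had 0.36). The laminin chain Lamb3, at 0.49 ± 0.13 (adjusted p = 0.050006), had the smallest p there and passed with the variance trend (0.024). Among keratins, the filaments that desmosomes hold, 1 of 9 rose and 0 fell, with a median of 0.11 (-0.04 on array 1 and 0.11 on array 2). Krt18, a keratin of simple epithelia, had 0.61 ± 0.04 (adjusted p = 0.0247) and Krt5, a basal keratin, -0.46 ± 0.30 (adjusted p = 0.0833). Averaging its tested probes brought Krt5 to -0.26 (adjusted p = 0.240), and the variance trend took it past the threshold (0.0443). After median centring the hemidesmosome and keratin medians lay below 0, at -0.08 and -0.14, and the adherens junction median was 0.08. The calls of Cdh1, Nectin4 and Krt18 were lost under the same 4 alternatives as that of Evpl, and that of Krt18 with the variance trend too (adjusted p = 0.0794).

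Markers of epithelium were read beside the desmosome genes. Of 12 tested general epithelial markers 4 rose and 0 fell, and the median ratio was 0.30 on array 1 and 0.41 on array 2. Ratios above 0 on both arrays were seen in 10 of the 12, while 2 had opposite signs. The means ran from -0.04 to 1.00. Gata3, a urothelial transcription factor, had 1.00 ± 0.33 (SD, n = 2; limma adjusted p = 0.0152) and Foxa1, another, 0.79 ± 0.20 (adjusted p = 0.0188). Cldn7, a tight junction protein, had 0.58 ± 0.29 (adjusted p = 0.0463) and the splicing regulator Esrp2 0.49 ± 0.09 (adjusted p = 0.0459). Processed signals, median centring and separate channels ended the calls of all 4, and the authors' value table those of Foxa1, Cldn7 and Esrp2. Averaging its tested probes brought Cldn7 to 0.30 (adjusted p = 0.153), and without the filter on dim probes its adjusted p was 0.0564. The summed levels of these markers were 54609 and 53590 in control RNA and 73442 and 87693 in mutant RNA. Cldn3 was the one marker of this list not well above background. Of the 8 desmosome genes, 7 had ratios below the epithelial median on both arrays, and Ppl lay above it on both, by 0.03 and 0.07. For Dsp the distance was -0.07 on array 1 and -0.19 on array 2, and for Dsg2 it was -0.11 and -0.27. By mean ratio, most tested genes of any kind lay that low. A mean ratio of 0.28 (Dsg1c), below both of these medians, exceeded that of 90.5% of all tested genes. The share of all tested genes below the epithelial median on both arrays was not counted. The count of 7 of 8 is therefore not read as setting the desmosome genes apart. The part of epithelial content in the desmosome ratios was not tested.

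Within the urothelium, 2 of 6 superficial markers rose and 0 fell (median 0.44), with summed levels of 178010 and 175590 in control RNA and 244430 and 293460 in mutant RNA. Upk1a, a uroplakin of the apical membrane, had 0.97 ± 0.15 (SD, n = 2; limma adjusted p = 0.0116) and Grhl3, a transcription factor of epithelial barriers, 0.82 ± 0.02 (adjusted p = 0.0147). Of 8 basal markers 0 rose and 1 fell (median -0.09), with summed levels of 68564 and 63069 in control RNA and 65098 and 74382 in mutant RNA. On array 2 the sum was higher in mutant RNA although the median ratio there was -0.16. The marker that fell was the hyaluronan receptor Cd44, at -0.65 ± 0.14 (adjusted p = 0.0243). The basal transcription factor Trp63, with the next smallest p, lay the other way at 0.45 ± 0.02 (adjusted p = 0.0562), and 4 of the 8 lay above 0. With the variance trend Trp63 passed (0.0329), and the average of its tested probes was 0.14 (0.468). The calls of Upk1a, Grhl3 and Cd44 were lost with processed signals, median centring and separate channels, and that of Cd44 with the authors' value table too.

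Marker transcripts of several other cell types that a dissected ureter can hold also differed. Kidney tubule markers rose in 3 of 8 and fell in 0 (median 0.37), and 2 of the 8 lay below 0 on both arrays. Their summed levels were 1918.5 and 1781.2 in control RNA and 4206.8 and 2251.3 in mutant RNA. The calls of Umod and Kcnj1 were lost without the filter on dim probes (limma adjusted p = 0.0545 and 0.0631) and with the authors' value table. That of Cdh16 was lost with processed signals (0.0717). Mesothelial markers rose in 2 of 4 (median 0.37), with 4700.8 and 5248.4 in control RNA and 6641.9 and 7320.3 in mutant RNA. Both kinds of cell form epithelia with junctions of their own, and their part in the desmosome ratios was not tested. Of markers without desmosomes, 7 of 10 endothelial (median -0.55), 6 of 7 adipocyte (median -1.90), 4 of 7 macrophage (median -0.56) and 2 of 8 mesenchymal and fibroblast markers (median -0.04) fell. No marker of these 4 lists passed in the higher direction. Of the mesenchymal and fibroblast markers, 3 of 8 lay above 0 on both arrays and 3 below 0 on both. Of the adipocyte markers, 1 of 7 lay above 0 on both. Among smooth muscle markers 0 of 7 passed (median 0.00). With median centring no gene of any list was called. Processed signals ended every call of the endothelial, adipocyte, macrophage and mesenchymal lists. The authors' value table kept only those of the endothelial marker Sox17, the adipocyte marker Retn and the fibroblast marker Dpt among them. The adipocyte median was -1.15 on array 1 and -2.83 on array 2. The ratios of the desmosome genes are relative to all genes of an array, and these lists are part of that total.

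**Figure D5:**
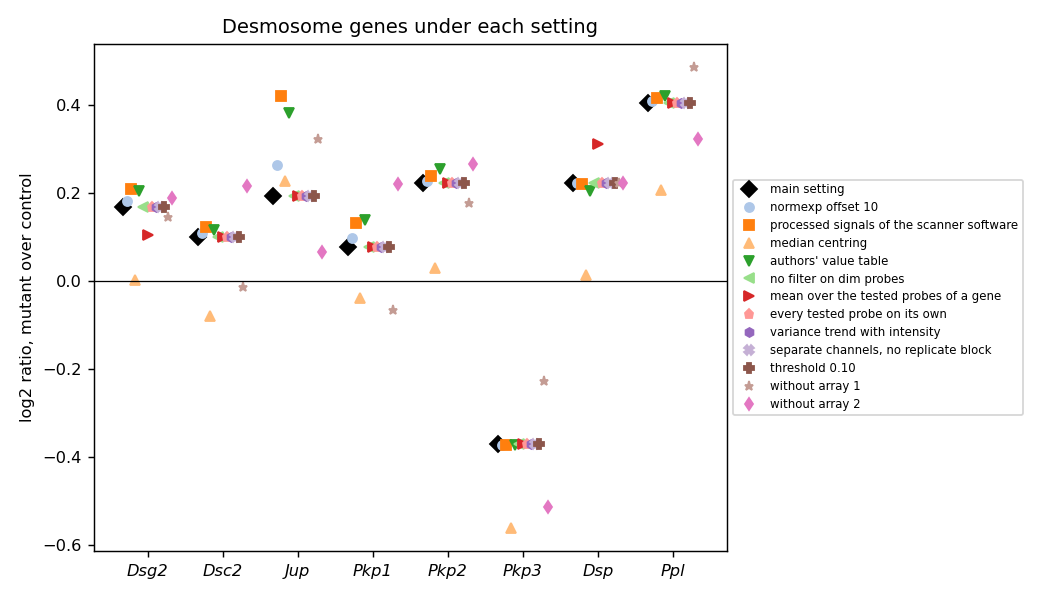
Mean log2 ratio of mutant over control (vertical axis) of the 8 tested desmosome genes under the reported setting and each alternative, including each array on its own. Values of Dsg2, Jup, Pkp2, Dsp and Ppl stay above 0 and those of Pkp3 below 0, while median centring brings Dsc2 to -0.08 and Pkp1 to -0.04. Alternatives that change only the dim-probe filter, variance model, channels, threshold or the testing of every probe repeat the reported ratio.

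The normalisation bore on the level of the whole set. With each array's ratios centred on the median in place of the intensity-dependent loess curve, the median of the 8 genes was 0.0068 and 5 of 8 lay above 0. The median of all genes moved to -0.14 under that setting, so the desmosome median lay 0.148 above it, compared with 0.199 above it in the reported values. Median centring also lowered the median of the general epithelial markers, from 0.39 to 0.20. That of the superficial urothelial markers went from 0.44 to 0.15. Over 13 settings Ppl ran from 0.21 to 0.49, Dsp from 0.01 to 0.31, Pkp2 from 0.03 to 0.27, Jup from 0.07 to 0.42 and Dsg2 from 0.0004 to 0.21. Not all of these settings could move a ratio. Those that changed only the dim-probe filter, variance model, channels, threshold or the testing of every probe kept the reported ratio of each gene. Pkp3 ran from -0.56 to -0.23, with an adjusted p between 0.0828 and 0.716.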

How the data were processed

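Total RNA of 2 mutant and 2 control ureter cultures was hybridised as 2 two-colour Agilent arrays with swapped dyes, from 150 ng of RNA per labelling per the labels. The deposited scanner files hold intensity values of each spot and its background, written, per the submitters' processing notes, by Agilent Feature Extraction 10.7.3.1. Their processed signals were background-subtracted and dye-normalised, and log10 ratios of red over green derived from them, per the file headers. In the authors' value table each probe has a score that reads as a signed fold, with a median of 1 on both arrays. On a log2 scale it correlated across probes with red over green at r = 0.844 (array 1) and -0.848 (array 2), so its direction is mutant over control. The sources used here do not give how it averaged spots, whether it was centred or why 8097 and 9100 values stand at exactly 1. Probe coordinates are mm9 per the file headers. No exon or UTR was assigned.

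Spot signals went through normexp background correction (offset 50) and loess within arrays in limma 3.58.1 (R 4.3.3), with control and outlier spots (3.17% and 3.65%) at weight 0. No gene spot was saturated. Between 70.3% and 78.3% of gene spots were well above background per channel, and the number of arrays limits the precision. The 4 spots of a probe were averaged, and the brightest tested probe stood for a gene. Probes were named through RefSeq accession (28328), symbol (3400) or the file's name (7701). Ratios were turned to mutant over control and tested against 0, two-sided, by lmFit and eBayes over 22070 genes with Benjamini-Hochberg adjustment at 0.05 (residual df 1, prior df 7.45). Intervals are 95% intervals of that fit. Levels are separate channels after Aquantile normalisation, and summed levels are sums of their linear values. Median SD between arrays was 0.11 log2.

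The script was tested on simulated data. Text names the 10 genes, tested genes of the other desmosome list and, in other lists, genes that passed or, where fewer than 2 did, the 2 with the smallest p; some are given by counts alone, and 1 gene that the rule names is not reported here. Members and lists were chosen with earlier results of these data known. Alternatives covered background, normalisation, value table, filter, probe rule, variance model, channels, threshold and each array.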

Additional observations from a re-analysis of the deposited data

Results flagged for a closer look

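The ratios of 2 desmosome genes had opposite signs on the 2 arrays. For the desmocollin Dsc2 the log2 ratio of array 1, labelled male, exceeded that of array 2, labelled female, by 0.23. For the plakophilin Pkp1 the difference was 0.287. With 1 array of each sex label the difference was not tested, and sex label, replicate and dye orientation cannot be told apart. Opposite signs occurred in 7401 of 22070 tested genes.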

How the results depend on the processing

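The count of called genes depended on the processing, with 836 as reported. It was 1281 with a normexp offset of 10, 10 with the software's processed signals, 0 with median centring (limma, 5584 genes at an unadjusted p below 0.05), 170 with the authors' value table, 1471 with every probe on its own, 1415 with a variance trend and 1907 at a threshold of 0.10. With separate channels and no replicate block, which drops the pairing of RNA samples on an array, it was 3, and no desmosome gene was called. The count of called desmosome genes was 1 (Ppl) with the variance trend and 1 (Ppl) at a threshold of 0.10, and 0 under the other alternatives with a test. The desmosome median of 0.18 fell to 0.0068 with median centring and was 0.13 with no filter on dim probes, which adds Dsg3 and Dsc3. It ran from 0.16 to 0.22 when 1 array was left out, which leaves a value with no test. Median centring reversed Dsc2 (-0.0794), Pkp1 (-0.0397), Perp (-0.18) and the smooth muscle gene Myh11 (-0.16), none of them called, and the cause was not tested. Over all alternatives, the named genes outside the 10 lost a call in 144 comparisons and gained one in 19. Probes not above background give no ratio for Dsg3 and Dsc3.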
